A study of Mus musculus with 8 samples.

Results

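*Hif1a* and 8 hypoxia-inducible genes (*Egln1*, *Egln3*, *Vegfa*, *Adm*, *Bnip3*, *Ddit4*, *Ankrd37*, and *Ndrg1*) were examined in RNA-Seq of mouse pancreas. The 9 genes were chosen by name among the 48709 genes of each library. Pancreata were taken from 8-week-old male mice 24 hours after saline or after palmitoleic acid (POA) and ethanol given intraperitoneally, a model of alcoholic acute pancreatitis (FAEE-SAP). There were 2 libraries in each of 4 groups (WT saline, cKO saline, WT FAEE-SAP, and cKO FAEE-SAP), described by the submitters as biological replicates. The cKO mice carried floxed *Pfkfb3* on both alleles and Cre under the *Pdx1* promoter, which is active in the pancreatic epithelium, so other cells of the organ keep the gene. By the study's methods, WT mice were bought from a supplier, so genotype and breeding origin cannot be told apart. Mice were fasted before induction, and buprenorphine was given with the first POA and ethanol injection, so its presence cannot be told apart from FAEE-SAP.

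HIF-1α, the product of *Hif1a*, is the oxygen-regulated subunit of the transcription factor HIF-1. With oxygen, prolyl hydroxylases (encoded by *Egln1*, *Egln2*, and *Egln3*) mark it for degradation through VHL. Without oxygen it accumulates, pairs with ARNT, and binds hypoxia response elements of its target genes, so that its activity is set largely at the level of the protein, which mRNA does not show. *Pfkfb3*, the gene deleted in cKO mice, encodes an activator of glycolysis and is itself a HIF-1 target. Among the members, *Vegfa* and *Adm* encode secreted vascular ligands, *Bnip3* a mitophagy receptor, *Ddit4* an inhibitor of mTORC1, and *Ndrg1* a stress-responsive protein, while *Ankrd37* is a target of less known function. *Egln1* and *Egln3* are both HIF targets and negative regulators of HIF.

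The core of the hypoxia response element (ACGTG or GCGTG, either strand, overlapping matches merged) was looked for in the 250 bases before each RefSeq transcription start (GRCm38.p6). Of 32851 promoter windows, 38.6% held at least 1 core and 13.5% held 2 or more. Windows were found for 8 of the 9 members, and *Ndrg1* was not examined. The stretches below are shown because each holds a core of a member with a match, with 1 core in capitals (or the E-box around it), written 5′ to 3′ on the strand of the gene. Those of *Vegfa* and *Bnip3* hold further cores in lower case, 1 before that of *Vegfa* and 1 on either side of that of *Bnip3*.
Hif1a, chr12:73907720-73907749, plus strand: cacacagacaagCACGTGagcggggcagct
Egln1, chr8:124949305-124949334, minus strand: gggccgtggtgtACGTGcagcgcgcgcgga
Egln3, chr12:54204086-54204115, minus strand: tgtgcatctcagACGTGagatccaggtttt
Vegfa, second start, chr17:46025357-46025386, minus strand: ggagtgcgtgccCACGTcagagagcaacat
Adm, chr7:110627555-110627584, plus strand: tttagaagcaagCACGCtggagagggagga
Bnip3, chr7:138909597-138909626, minus strand: gcgcacgcgccgCACGTGccacacgctccc
Ddit4, chr10:59951940-59951969, minus strand: agaacgttgcgaACGTGcgcccggtgccta
Ankrd37, chr8:46000071-46000100, minus strand: cccagcagtACGTGcctagctcggctcgca

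*Bnip3* had 4 cores, *Ankrd37* 3, and *Hif1a*, *Egln1*, *Adm*, and *Ddit4* 2 each, whereas *Egln3* had 1. Of the 2 *Vegfa* starts, 1 window held 2 cores and the other held 0 within these bases. In *Hif1a* and *Bnip3*, 1 core lay within CACGTG, the E-box that other factors also bind, which 6.02% of all windows held. A match describes the sequence and does not show binding.

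**Figure D1:**
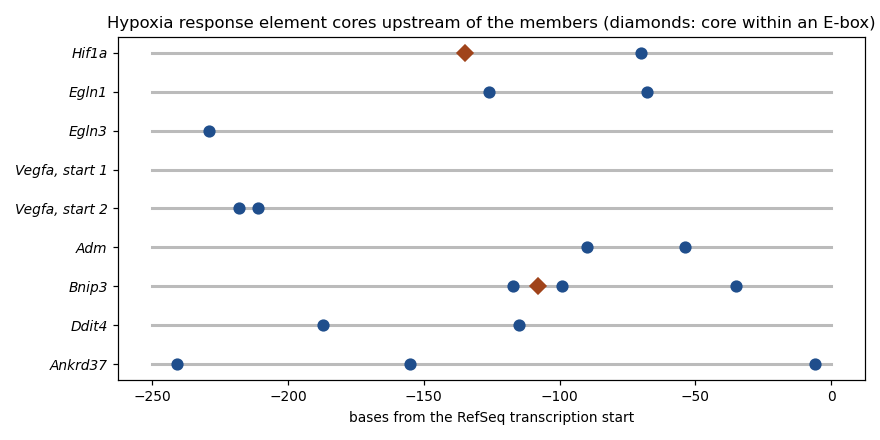
Positions of hypoxia response element cores in the 250 bases before each RefSeq start (x axis, bases from the start) of 8 members, 1 row per start. Circles are cores and diamonds are cores within an E-box. *Bnip3* had 4 cores, and the first *Vegfa* start had 0.

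The deposited values were RPKM. They were scaled by the median of ratios. The factors were 0.621 to 0.866 for saline, 1.94 and 2.02 for WT FAEE-SAP, and 0.9754 and 1.05 for cKO FAEE-SAP. Why they differed was not tested. Levels are given as scaled RPKM over all 8 libraries. Library totals worked out from the low values were 22.8 to 37.6 M reads. Acinar markers were abundant in every library, and their summed scaled RPKM was 163390 to 190650 in WT saline, 219350 to 221930 in cKO saline, 49231 to 50093 in WT FAEE-SAP, and 128790 to 144510 in cKO FAEE-SAP. Neutrophil markers summed to 1.28 to 3.67 in the 4 saline libraries, 54.1 to 59.4 in WT FAEE-SAP, and 12.6 to 19.8 in cKO FAEE-SAP. In bulk tissue, fewer cells of a type and less RNA per cell cannot be told apart. *Pfkfb3* was 1.70 and 1.69 in WT after saline, 1.85 and 3.21 in WT after FAEE-SAP, 0.880 and 2.10 in cKO after saline, and 1.74 and 2.82 in cKO after FAEE-SAP. The genotypes overlapped under both treatments, and a value per gene cannot show the deletion of a few exons, so *Pfkfb3* does not test the genotype labels.

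Groups were compared with limma on log2(scaled RPKM + 0.1). A gene was called when it differed by at least 2-fold and its p-value, adjusted over all tested genes by the Benjamini-Hochberg method, was under 0.05. None of the 9 members was called in any of the comparisons. In WT, 7 members passed the filter on low values and 0 were called with FAEE-SAP, where 6.93% of 10894 genes were called, and 3 members had an unadjusted p-value under 0.05, as did 27.7% of all genes. In cKO, 0 of 7 members were called beside 0.0531% of 9423 genes, and 1 had an unadjusted p-value under 0.05, against 9.42%. Between cKO and WT, 0 of 6 members were called after saline, where 0 of 8715 genes (0%) were called, and 0 had an unadjusted p-value under 0.05, against 2.15%. After FAEE-SAP, 0 of 7 were called between cKO and WT beside 1.27% of 11008 genes, and 2 had an unadjusted p-value under 0.05, against 19.5%. For the interaction of genotype and treatment, 0 of 7 were called beside 0.0719% of 11133 genes, and 0 had an unadjusted p-value under 0.05, against 12.6%.

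**Figure D2:**
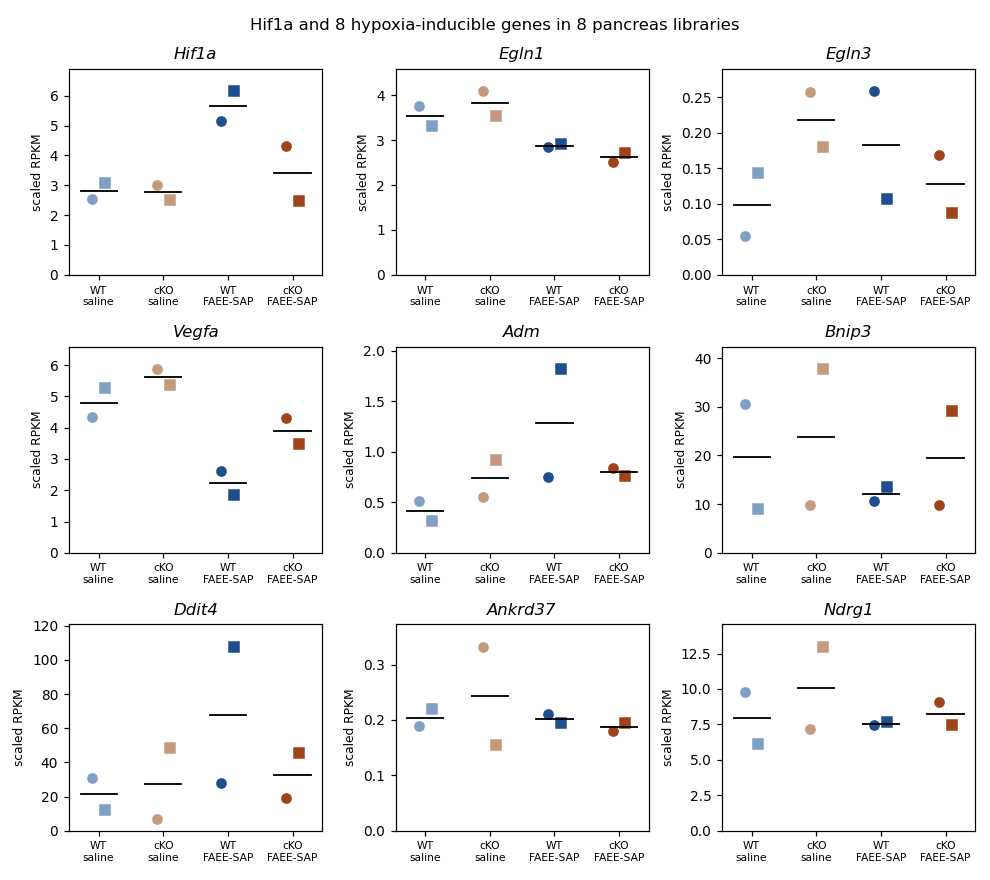
Scaled RPKM (y axis, from 0) of the 9 genes in the 4 groups (x axis). Circles are replicate 1, squares are replicate 2, and bars are group means. *Hif1a* was highest in the WT FAEE-SAP libraries, at 5.15 and 6.17, and *Vegfa* lowest there, at 2.63 and 1.85.

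*Hif1a* was 2.54 and 3.08 in WT after saline, 5.15 and 6.17 in WT after FAEE-SAP, 3.02 and 2.50 in cKO after saline, and 4.33 and 2.47 in cKO after FAEE-SAP. Both WT FAEE-SAP libraries lay above the other 6, whereas the cKO FAEE-SAP libraries were split, 1 above every saline library and 1 below them all. Neutrophil markers moved the same way in WT, where 6 of 6 tested were called higher with FAEE-SAP, beside 6.93% of all genes called. Over the saline libraries 1 of these 7 listed markers passed the filter. Most therefore entered the WT test through the group where they were high, which favors a difference. The sums of neutrophil markers, given above, were lower in cKO FAEE-SAP than in WT FAEE-SAP. Their part in the level of *Hif1a* was not tested. In WT the log2 fold change with FAEE-SAP was 0.99 (SE 0.21, 95% CI 0.46 to 1.51, adjusted p = 0.0487, limma), a 1.98-fold difference that passed the p-value threshold narrowly and not the fold minimum. The adjusted p from limma was 0.064 under quantile normalization, 0.0665 with all 8 libraries in 1 model, 0.0824 without a filter, and 0.0822 to 0.192 with any 1 of the 4 libraries left out, and with replicate number as a block it was 0.0901. Of 10 alternatives, 2 kept the adjusted p of *Hif1a* under 0.05. They were a pseudocount of 1 (0.0464, limma) and the values as deposited (0.00146, limma), where the median of all genes was 1.24. Without a fold minimum, *Hif1a* was the 1 member past the threshold, as were 8.09% of all genes. In cKO the log2 fold change was 0.27 (SE 0.33, adjusted p = 0.796, limma), and without cKO FAEE-SAP replicate 1 it was -0.11. The difference between the genotypes in this change was -0.74 (95% CI -1.67 to 0.19, adjusted p = 0.485, limma), so a different response was not shown. After FAEE-SAP, *Hif1a* in cKO minus WT was -0.78 (95% CI -1.54 to -0.02, adjusted p = 0.245, limma). The groups did not overlap, which held for 3 of 7 members and 51.9% of all genes in that comparison.

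The genes whose profile over the 8 libraries was nearest to that of *Hif1a*, among 7375 genes compared by root mean square distance of centred log2 values, were *Lasp1* (0.0810), *Tgm2* (0.126), and *Vasp* (0.137). *Lasp1*, which encodes an actin-binding protein, after FAEE-SAP was at 5.18 and 6.85 in WT and at 4.14 and 2.75 in cKO. *Tgm2*, which encodes a transglutaminase, after FAEE-SAP was at 9.38 and 9.84 in WT and at 8.66 and 4.49 in cKO. *Vasp*, which encodes a regulator of actin filaments, after FAEE-SAP was at 8.09 and 8.22 in WT and at 6.28 and 3.33 in cKO. Their likeness to *Hif1a*, the low second cKO FAEE-SAP library included, is what they were chosen for.

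*Egln1* was 3.76 and 3.33 in WT after saline, 2.84 and 2.92 in WT after FAEE-SAP, 4.11 and 3.54 in cKO after saline, and 2.52 and 2.71 in cKO after FAEE-SAP. All 4 FAEE-SAP libraries lay below all 4 saline libraries, as they did for 7.55% of the 11133 genes fitted over 8 libraries. Its replicates were closer than those of most genes, with a within-group SD of 0.10 on the log2 scale beside a median of 0.25 over all genes. The log2 fold change with FAEE-SAP was -0.29 (SE 0.20, adjusted p = 0.387, limma) in WT and -0.49 (SE 0.18, adjusted p = 0.499, limma) in cKO. *Egln3* was near the limit of detection, with 3 to 32 reads in a library, and was not tested. Its lowest library, WT saline replicate 1, had 3 reads (95% exact Poisson interval 0.619 to 8.77) and its highest, WT FAEE-SAP replicate 1, had 32 (21.9 to 45.2), which on the scaled RPKM scale were 0.0546 and 0.259. These intervals cover counting error only.

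The list of 11 genes of the HIF system held other subunits and regulators. None was called in any of the 5 comparisons (limma), with 7 or 8 tested and 0 to 2 with an unadjusted p-value under 0.05 in each. Over all genes 0% to 6.93% were called and 2.15% to 27.7% had an unadjusted p-value under 0.05 in these comparisons. *Epas1*, which encodes HIF-2α, was 4.03 to 5.29 over the saline libraries and 4.32 to 4.78 over the FAEE-SAP libraries. *Arnt*, which encodes the partner subunit, was 1.55 to 1.73 in saline and 1.55 to 2.14 with FAEE-SAP, and *Vhl*, the substrate receptor of the ubiquitin ligase, 1.08 to 1.30 and 1.10 to 1.64. *Hif1an*, which encodes the asparaginyl hydroxylase that blocks HIF transactivation, was 2.25 to 2.35 over the saline libraries, 2.65 and 3.90 in WT with FAEE-SAP, and 1.69 and 2.24 in cKO with FAEE-SAP. The ranges of *Epas1*, *Arnt*, and *Vhl* overlapped between saline and FAEE-SAP, whereas *Hif1an* lay above saline in WT and below it in cKO.

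*Vegfa* was 4.33 and 5.26 in WT after saline, 2.63 and 1.85 in WT after FAEE-SAP, 5.89 and 5.35 in cKO after saline, and 4.31 and 3.48 in cKO after FAEE-SAP. All 4 FAEE-SAP libraries lay below all 4 saline libraries, and the WT FAEE-SAP libraries were the lowest pair. In WT the log2 fold change with FAEE-SAP was -1.09 (SE 0.25, 95% CI -1.71 to -0.48, adjusted p = 0.0556, limma), past the fold minimum and not the p-value threshold, and of 10 alternatives 1 brought the adjusted p under 0.05, a model of all 8 libraries (-1.08, adjusted p = 0.0294, limma). It was 0.0707 under quantile normalization, 0.104 without a filter, and 0.0735 to 0.215 with any 1 of the 4 libraries left out (limma), and with replicate number as a block it was 0.109. In cKO it was -0.49 (SE 0.20, 95% CI -1.03 to 0.04, adjusted p = 0.542, limma). The difference between these changes was 0.55 (95% CI -0.19 to 1.30, adjusted p = 0.508, limma). After FAEE-SAP, cKO minus WT was 0.78 (95% CI 0.14 to 1.42, adjusted p = 0.192, limma). In a comparison added after the values were seen, the change with FAEE-SAP averaged over both genotypes was -0.80 (SE 0.16, adjusted p = 0.0264, limma), which passed the p-value threshold and not the fold minimum. With 1 library left out, the adjusted p was 0.0289 to 0.0844 (limma), over the threshold for 7 of the 8 libraries. In this average, 1 of 7 members passed without a fold minimum, as did 9.35% of all genes, and 0 passed with it, beside 4.18%. An unadjusted p-value under 0.05 was found for 4 of 7 (limma), against 28.3%. The average was -0.41 for *Egln1* (adjusted p = 0.0744, limma) and 0.62 for *Hif1a* (adjusted p = 0.0952, limma). The lower *Vegfa* moved with the lower acinar markers, of which 10 of 10 were called lower in WT FAEE-SAP and 0 of 10 in cKO FAEE-SAP (7 at an unadjusted p-value under 0.05, limma), and the part of acinar content in it was not tested. By their median log2 fold change, islet markers moved with *Vegfa* in WT (-0.81) and apart from it in cKO (0.38). Of them, 2 of 6 (*Gcg* and *Sst*) were called lower in WT FAEE-SAP, where 6.93% of all genes were called. In cKO, 0 of 6 were called. Neither WT call held with values as deposited, where *Gcg* was at 0.31 and *Sst* at -0.19. Quantile normalization lost that of *Gcg* (-0.93). Islet markers summed to 271 to 320 in WT saline, 290 to 358 in cKO saline, 170 to 228 in WT FAEE-SAP, and 411 to 427 in cKO FAEE-SAP.

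*Adm* was low, at 0.508 and 0.313 in WT after saline, 0.745 and 1.82 in WT after FAEE-SAP, 0.553 and 0.917 in cKO after saline, and 0.834 and 0.758 in cKO after FAEE-SAP. The highest library was WT FAEE-SAP replicate 2, with 186 reads (95% exact Poisson interval 160 to 215), beside 12 (6.20 to 21.0) in WT saline replicate 2. In WT the log2 fold change with FAEE-SAP was 1.38 (SE 0.46, 95% CI 0.25 to 2.50, adjusted p = 0.122, limma), and in cKO it was 0.16 (SE 0.28, adjusted p = 0.874, limma). As deposited, both WT saline libraries were under the filter of 0.5 RPKM (0.370 and 0.271), so *Adm* entered the WT test only through the group where it was high, which favors a difference. The interaction was -1.21 (95% CI -2.61 to 0.19, adjusted p = 0.46, limma). Without WT FAEE-SAP replicate 2, cKO minus WT after FAEE-SAP changed sign, from -0.53 to 0.07.

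Of 16 listed ligands and receptors of the VEGF and adrenomedullin systems, 13 were tested in WT, 2 fell with FAEE-SAP, and 0 rose, where 6.93% of all genes were called. *Ramp1*, which encodes a coreceptor of the calcitonin receptor family, fell by 1.83 on the log2 scale (SE 0.25, adjusted p = 0.0159, limma). *Vegfb*, a ligand of VEGF receptor 1, fell by 1.37 (SE 0.29, adjusted p = 0.0465, limma), and neither call held with values as deposited, where the changes were -0.54 and -0.10, while quantile normalization lost that of *Vegfb* (adjusted p = 0.0524, limma). The median of the list was -0.48 in WT, where that of all genes was 0.02, and -0.05 in cKO. *Kdr*, which encodes the main signaling receptor of VEGF-A, was 1.01 to 1.29 over the saline libraries, 0.928 and 0.856 in WT with FAEE-SAP, and 2.02 and 1.27 in cKO with FAEE-SAP. Both WT FAEE-SAP libraries lay below every saline library, and the cKO FAEE-SAP libraries did not. Endothelial markers summed to 15.4 to 18.5 over the saline libraries, 15.3 to 17.8 in WT FAEE-SAP, and 19.0 to 24.8 in cKO FAEE-SAP, and their part in the level of *Kdr* was not tested. Of the VEGF and adrenomedullin list in cKO, 0 of 12 were called, and 4 had an unadjusted p-value under 0.05 (limma), against 9.42% of all genes. In WT 6 of 13 had one, against 27.7%, and between genotypes after FAEE-SAP 4 of 13, against 19.5%.

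**Figure D3:**
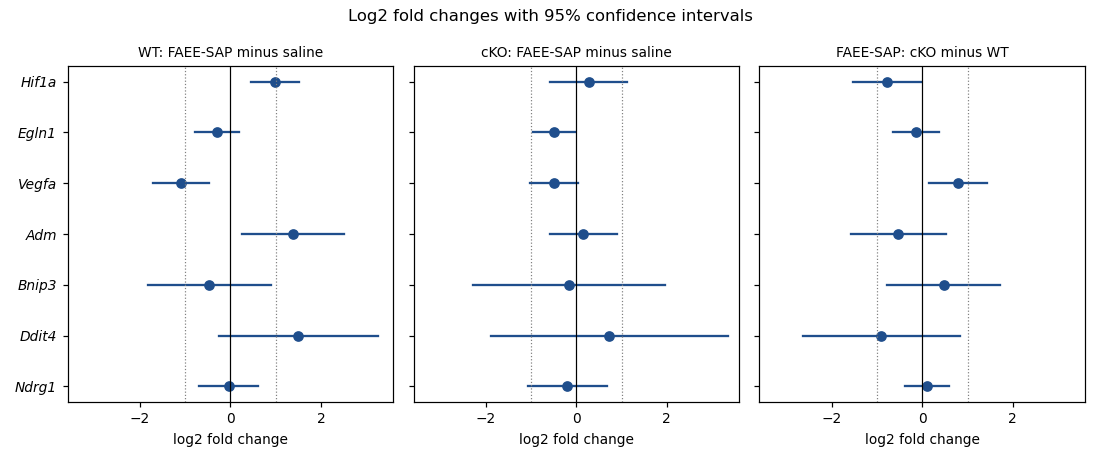
Log2 fold changes (x axis) of the 7 members that were tested, with 95% confidence intervals as lines, for the change with FAEE-SAP within each genotype and for cKO against WT after FAEE-SAP. Dotted lines mark 2-fold. The intervals of *Bnip3* and *Ddit4* span 0 in each panel.

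*Ddit4* varied most between replicates. It was 30.9 and 12.04 in WT after saline, 28.01 and 107.9 in WT after FAEE-SAP, 6.76 and 48.3 in cKO after saline, and 19.0 and 45.6 in cKO after FAEE-SAP. The replicates differed by 2.40 to 7.15 times, and the within-group SD of 1.38 on the log2 scale was larger than that of 99.3% of genes. The log2 fold change with FAEE-SAP was 1.501 (SE 0.71, 95% CI -0.26 to 3.26, adjusted p = 0.24, limma) in WT and 0.73 (95% CI -1.89 to 3.35, adjusted p = 0.825, limma) in cKO. Both intervals include 0, and the WT change was 0.57 without WT FAEE-SAP replicate 2, 0.80 without WT saline replicate 2, 2.18 without WT saline replicate 1, and 2.51 without WT FAEE-SAP replicate 1.

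*Bnip3* was 30.6 and 8.99 in WT after saline, 10.7 and 13.6 in WT after FAEE-SAP, 9.74 and 37.8 in cKO after saline, and 9.75 and 29.1 in cKO after FAEE-SAP. All groups overlapped. Its log2 fold change with FAEE-SAP was -0.47 (SE 0.55, adjusted p = 0.64, limma) in WT and -0.16 (SE 0.81, adjusted p = 0.964, limma) in cKO, and the within-group SD was larger than that of 98.4% of genes. In WT the change was 0.42 without WT saline replicate 1, and -1.36 without WT saline replicate 2, where *Bnip3* was the 1 member called. Its paralog *Bnip3l*, also a mitophagy receptor, ranged over all 8 libraries from 5.36 to 7.17.

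*Ddit4* and *Bnip3* were high in the same library of every group, namely WT saline replicate 1 and replicate 2 of the other 3 groups. Of 11132 other genes, 15.1% had this order in all 4 groups. Of the 6 other members tested, *Bnip3* alone had it. *Vegfa* had the opposite order in all 4 groups. Of 12 glucocorticoid-responsive genes, 10 had the order of *Ddit4*, itself a known glucocorticoid target. *Fkbp5*, which encodes a cochaperone of the glucocorticoid receptor, was 14.9 and 7.35 in WT after saline, 6.83 and 21.6 in WT after FAEE-SAP, 6.46 and 18.3 in cKO after saline, and 3.74 and 29.97 in cKO after FAEE-SAP. *Sgk1*, which encodes a kinase, was 8.62 and 4.71 in WT after saline, 1.71 and 9.78 in WT after FAEE-SAP, 2.58 and 7.24 in cKO after saline, and 4.05 and 10.7 in cKO after FAEE-SAP. None of the 12 genes was called in any of the 5 comparisons, and 0 to 2 had an unadjusted p-value under 0.05 (limma), the 2 of them in WT, where 27.7% of all genes did. The order was that of 4 of 8 genes of the HIF system, 7 of 15 of the mitophagy and mTORC1 list, 9 of 35 other hypoxia-inducible genes, 2 of 13 of the VEGF and adrenomedullin list, 2 of 12 integrated stress response genes, and 1 of 18 glycolysis genes, and the cause of the shared order was not tested.

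**Figure D4:**
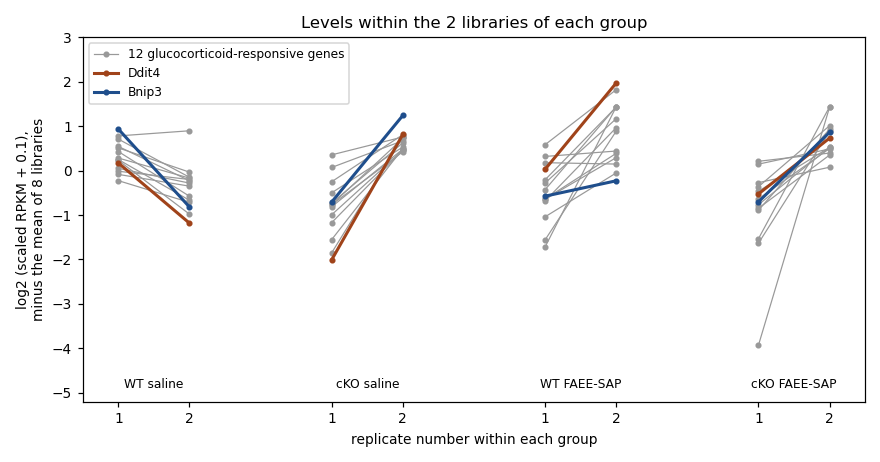
Log2(scaled RPKM + 0.1) minus the mean of the 8 libraries (y axis) of *Ddit4*, *Bnip3*, and 12 glucocorticoid-responsive genes (gray), by replicate number within each group (x axis). Lines join the 2 libraries of a group. *Ddit4* and *Bnip3* were higher in replicate 1 of WT saline and in replicate 2 of the other 3 groups.

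*Ndrg1* was 9.77 and 6.09 in WT after saline, 7.44 and 7.68 in WT after FAEE-SAP, 7.20 and 13.0 in cKO after saline, and 9.05 and 7.45 in cKO after FAEE-SAP, and all groups overlapped. Its log2 fold change with FAEE-SAP was -0.04 (95% CI -0.69 to 0.62, adjusted p = 0.949, limma) in WT and -0.20 (95% CI -1.08 to 0.67, adjusted p = 0.858, limma) in cKO. *Ankrd37* had 5 to 19 reads in a library, or 0.156 to 0.333 scaled RPKM, and was not tested. Its highest count, 19 reads in WT FAEE-SAP replicate 2 (95% exact Poisson interval 11.4 to 29.7), was 0.195 on the scaled scale, within the range of the saline libraries.

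After saline, the log2 fold change of cKO against WT was -0.05 for *Hif1a* (95% CI -0.56 to 0.46), 0.08 for *Egln1* (-0.35 to 0.51), and 0.20 for *Vegfa* (-0.29 to 0.69), each with an adjusted p of 0.999 from limma. The intervals of *Bnip3* (-2.01 to 2.38) and *Ddit4* (-2.74 to 2.51) were far wider and leave room for large differences in either direction. The libraries of the genotypes did not overlap for 1 of 6 members, *Vegfa*, and for 28.3% of all genes. With FAEE-SAP against saline, they did not overlap for 4 of 7 members in WT (58.8% of all genes) and for 2 of 7 in cKO (43.2%).

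Other hypoxia-inducible genes were called in small numbers. Of 33 tested in WT, 2 rose with FAEE-SAP and 0 fell, a share near the 6.93% called over all genes. An unadjusted p-value under 0.05 was found for 12 of 33 in WT (limma), against 27.7% of all genes, and for 5 of 33 in cKO, against 9.42%. *Hmox1*, which encodes heme oxygenase 1, rose by 2.10 on the log2 scale (SE 0.23, adjusted p = 0.00878, limma) and *Bhlhe40*, a transcriptional repressor, by 1.46 (SE 0.30, adjusted p = 0.0429, limma). In cKO, where 0.0531% of all genes were called, 1 of 33 was called, *Car9*, a carbonic anhydrase, at 0.278 and 0.312 after saline and 3.31 and 3.597 after FAEE-SAP, which differed by 3.12 on the log2 scale (SE 0.18, adjusted p = 0.0386, limma). *Car9* passed the filter only through the group where it was high, and the call was lost without a filter (adjusted p = 0.305, limma), with all 8 libraries in 1 model (0.146), and without either cKO saline library (0.146 and 0.22). In WT FAEE-SAP, *Car9* was 1.72 in 1 library and 0.274 in the other, and the interaction was called for none of the list. The median log2 fold change of the list was 0.01 in WT and 0.05 in cKO, beside 0.02 and -0.01 over all genes. In the average over both genotypes, where 4.18% of all genes were called, 3 of 35 were called higher and 1 lower, *Ak4*, a mitochondrial adenylate kinase, at -1.27 (SE 0.28, adjusted p = 0.0364, limma), a call kept under 2 of 13 alternatives. Of the 3 called higher, *Hmox1* kept the call under all 13, and *Bhlhe40* and *Car9* lost it under 7 of 13, with *Car9* reaching 0.5 RPKM only in FAEE-SAP libraries.

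Of 21 HIF-responsive glycolysis genes, 18 were tested in WT and 15 in cKO and none was called (limma), while 6 and 5 had an unadjusted p-value under 0.05, against 27.7% and 9.42% of all genes. Their median log2 fold change with FAEE-SAP was 0.31 in WT and 0.39 in cKO, beside 0.02 and -0.01 over all genes. In the average over both genotypes, 1 of 18 was called, *Slc16a3*, a lactate exporter, at 1.07 (SE 0.26, adjusted p = 0.0477, limma), a call lost under 9 of 11 alternatives, among them each of the 6 libraries whose omission left it in the test (adjusted p 0.0734 to 0.135, limma). *Slc16a3* passed the filter only through the WT FAEE-SAP libraries, where it was high. Of the mitophagy and mTORC1 list, 1 of 16 rose in WT, near the 6.93% called over all genes, *Bcl2l1*, which encodes the survival factor BCL-xL, by 1.68 (SE 0.35, adjusted p = 0.0461, limma), a call lost under quantile normalization (adjusted p = 0.0548, limma). Of 12 integrated stress response genes, 2 rose and 1 fell in WT, where 6.93% of all genes were called, and 8 had an unadjusted p-value under 0.05, against 27.7%. *Nupr1*, a stress-induced chromatin protein, rose by 1.63 (SE 0.16, adjusted p = 0.00721, limma) and *Cebpb*, a transcription factor, by 1.32 (SE 0.24, adjusted p = 0.0342, limma), while *Asns*, asparagine synthetase, fell by 1.18 (SE 0.18, adjusted p = 0.024, limma) and was at 0.14 with values as deposited. After FAEE-SAP, *Nupr1* in cKO minus WT was -1.63 (SE 0.22, adjusted p = 0.0387, limma), at 193 and 278 beside 707 and 719. That call was lost without a filter (adjusted p = 0.171, limma) and without WT FAEE-SAP replicate 1 (0.145) or replicate 2 (0.3). Of the genes called in WT, *Hmox1* and *Nupr1* lost the call without 1 of the 4 libraries (adjusted p up to 0.0601 and 0.0649, limma), *Ramp1* without 2, *Bhlhe40* and *Vegfb* without 3, and *Bcl2l1*, *Cebpb*, and *Asns* without any 1 of the 4.

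The sign of 4 members in WT changed with a scaling that moved all genes. With the RPKM as deposited, the median of all genes in WT FAEE-SAP against saline was 1.24 on the log2 scale, and the changes of *Egln1* (0.998), *Vegfa* (0.20), *Bnip3* (0.85), and *Ndrg1* (1.27) were positive rather than negative. There 4 members were called higher, *Hif1a* (2.28), *Adm* (2.53), *Ddit4* (2.82), and *Ndrg1*, with 7184 genes called higher and 86 lower. Relative to that median, *Vegfa* was at -1.05, *Bnip3* at -0.39, and *Egln1* at -0.25, the direction they had under median of ratios, *Hif1a* was at 1.03, and *Ndrg1* was at 0.03. Quantile normalization moved no sign in this comparison.

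**Figure D5:**
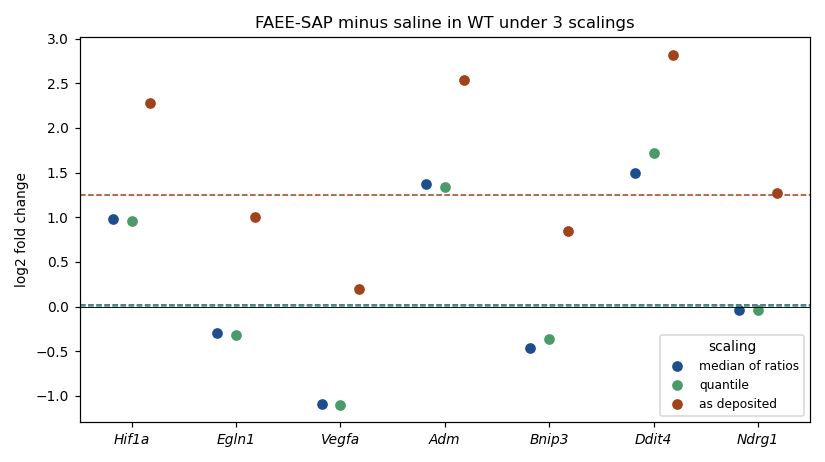
Log2 fold change with FAEE-SAP in WT (y axis) of the 7 members tested (x axis) under 3 scalings, with the median of all genes as a dashed line in the color of its scaling. As deposited, the median of all genes was 1.24, and *Egln1*, *Vegfa*, *Bnip3*, and *Ndrg1* changed sign.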

How the data were processed

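Pancreas RNA from 8 mice (2 per group) was sequenced. By the study's methods and the submitters' processing notes, paired-end reads were filtered with fastp and mapped to GRCm38.p6 with CLC Genomics Workbench. How the expression values were computed is not given in the sources used here. The authors deposited RPKM for 48709 genes per library, and no counts were used. Library totals were estimated from low values, which should give whole reads. Each total was the one that gave the largest share of whole reads. That share, 84.6% to 85.9% within 0.1 reads, is therefore no check of the totals. Reads of all matched genes summed to 100.3% to 105.7% of these totals, so reads per gene are approximate. The 95.1% of genes matched to 1 annotated gene by symbol gave lengths.

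Genes with RPKM of at least 0.5 in at least 2 libraries of a comparison were scaled by median of ratios and log2(scaled RPKM + 0.1) was fitted in R 4.3.3 by limma 3.58.1 (trended variance prior). Fold changes are on this scale, which understates changes of low genes. The 2 groups of a comparison entered each fit, and all 8 libraries the interaction. *Egln3* and *Ankrd37*, and after saline *Adm* also, failed the filter in the fits and have no test. The scripts were tested on simulated data. Python 3.11.15, numpy 2.4.6, pandas 2.3.3, scipy 1.17.1, and matplotlib 3.10.9 were used. The members, the 7 gene lists and 10 marker lists, and the alternatives were chosen with earlier results of these data known. All members, up to 5 called genes of each list, the 3 genes nearest to *Hif1a*, and *Pfkfb3* are named, and *Epas1*, *Arnt*, *Vhl*, *Hif1an*, *Kdr*, *Bnip3l*, *Fkbp5*, and *Sgk1* were named after their values were seen. One gene was taken out of a list and is not reported here. Promoter windows are from RefSeq. Replicate numbers gave 2 pairs only and were not taken as pairing.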

Additional observations from a re-analysis of the deposited data

How the results depend on the processing

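Across 450 recomputed fold changes of members, 383 kept their direction and side of the threshold, 56 changed sign, and 12 passed it newly, of which 1 (*Ndrg1* in WT, as deposited) also changed sign. With values as deposited, members called were 4 in WT, 3 between genotypes after FAEE-SAP (*Adm*, *Egln1*, and *Hif1a*, all lower in cKO, where the median of all genes was -0.91), and 3 for the average over genotypes, and genes called were 7270 (7184 higher, 86 lower), 15 in cKO, 2 after saline, 4427 between genotypes after FAEE-SAP (73 higher, 4354 lower), 791 for the interaction, and 4505 for the average. The signs that changed were those of *Egln1* (0.998), *Vegfa* (0.20), *Bnip3* (0.85), and *Ndrg1* (1.27) in WT, *Egln1* (0.10), *Vegfa* (0.11), *Bnip3* (0.46), and *Ndrg1* (0.41) in cKO, *Egln1* (-0.19), *Vegfa* (-0.069), and *Bnip3* (-0.091) after saline, *Vegfa* (-0.15), *Bnip3* (-0.48), and *Ndrg1* (-0.84) between genotypes after FAEE-SAP, *Vegfa* (-0.085) and *Bnip3* (-0.39) in the interaction, and *Egln1* (0.55), *Vegfa* (0.16), *Bnip3* (0.65), and *Ndrg1* (0.84) in the average. Without a filter, 259 genes were called in WT and 0 in cKO, between genotypes after FAEE-SAP, and for the interaction, and *Ndrg1* in WT was 0.031. Quantile normalization called 1 gene after saline, 78 after FAEE-SAP, and 25 for the interaction. A pseudocount of 1 called 24 for the interaction and 195 for the average. One model of all 8 libraries called 1 member in WT (*Vegfa*), 15 genes in cKO, and 295 between genotypes after FAEE-SAP. An unadjusted p-value with the fold minimum called 2 members in WT (*Adm* and *Vegfa*) and 1349 genes, 280 in cKO, 59 after saline, 924 after FAEE-SAP, and 782 for the interaction. Without a fold minimum, 1 member passed in WT (*Hif1a*) and 1 in the average (*Vegfa*), with 1041 genes. The cause of these shifts was not tested.

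With replicate number as a block, 442 genes were called in WT, 52 in cKO, 568 between genotypes after FAEE-SAP, and 0 for the interaction, and no member was called. The numbers of the WT saline libraries were also exchanged in that block. This was added after the data were seen, because deviations correlated at -0.175 in WT and -0.319 after saline (0.399 in cKO and 0.304 after FAEE-SAP). It called 2 members in WT (*Ddit4* higher and *Vegfa* lower) among 378 genes higher and 444 lower. The exchanged numbers follow the order that *Ddit4* had within the groups, and *Vegfa* had the opposite order. The block therefore removes spread of both by construction, and these 2 calls are no support for a change.

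With 1 library left out at a time, members called in WT ranged from 0 to 1 and genes from 97 (without WT FAEE-SAP replicate 2) to 491, against 755. Genes called were 0 to 6 in cKO, 0 to 139 between genotypes after FAEE-SAP (0 without either WT FAEE-SAP library, against 140), 0 to 4 for the interaction, and 230 to 471 for the average. The log2 fold changes that changed sign ranged as follows. In WT, *Bnip3* was -1.36 to 0.42 and *Ndrg1* -0.39 to 0.31. In cKO, *Hif1a* was -0.11 to 0.73, *Adm* -0.15 to 0.48, *Bnip3* -1.13 to 0.82, *Ddit4* -0.68 to 2.14, and *Ndrg1* -0.62 to 0.22. After saline, *Hif1a* was -0.22 to 0.10, *Egln1* -0.024 to 0.18, *Bnip3* -0.79 to 1.15, *Ddit4* -1.53 to 1.29, and *Ndrg1* -0.13 to 0.71. Between genotypes after FAEE-SAP, *Adm* was -1.15 to 0.065, *Bnip3* -0.33 to 1.28, *Ddit4* -1.90 to 0.052, and *Ndrg1* -0.0056 to 0.23. In the interaction, *Bnip3* was -0.71 to 1.24, *Ddit4* -2.23 to 0.60, and *Ndrg1* -0.64 to 0.21. In the average, *Bnip3* was -0.81 to 0.16 and *Ndrg1* -0.34 to 0.078. A fit that leaves 1 library in a group assumes that it varies like the others. Read totals limit *Egln3*, *Ankrd37*, and *Adm* most.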
